A study of Mus musculus with 18 samples.

Results

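The matrix metalloproteinases (Mmp genes), the secreted ADAMTS proteases (Adamts genes) and the tissue inhibitors of metalloproteinases (Timp genes) were followed in the lacrimal gland (LG) of male mice. Members were all genes of the raw count table whose symbol begins with Mmp, Adamts or Timp followed by a digit, and no measured value entered the choice. This gave 46 of 54232 genes, made up of 23 Mmp, 19 Adamts and 4 Timp genes. The study profiled whole LGs of 18 mice by bulk RNA-seq, with 1 gland from each mouse and 3 mice in each group. NOD.H-2b males (NOD.B10Sn-H2b/J, NOD mice whose MHC is of the b haplotype, a strain with an autoimmune dacryoadenitis and without diabetes) were compared with BALB/c males at the ages of 2 months (2M), 4 months (4M) and 6 months (6M). None of the mice carried a transgene or received an agent according to the labels. BALB/c is an unrelated inbred strain and not a congenic control, so every difference between the strains holds strain background and disease together, and these cannot be told apart.

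MMPs and ADAMTS proteases are zinc enzymes that cut proteins of the extracellular matrix and of the cell surface. MMPs are made as inactive proenzymes and are secreted or anchored in the plasma membrane, whereas ADAMTS proteases are secreted and trim procollagens, proteoglycans and microfibril proteins. TIMPs bind the active sites of MMPs, and TIMP3 also inhibits several ADAM and ADAMTS proteases. In the LG the matrix around acini, ducts and vessels is made and turned over mainly by fibroblasts, and infiltrating macrophages and other leukocytes bring proteases of their own.

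Of the 23 Mmp genes, 10 lie side by side on chromosome 9 (chr9:7272514-7699585, GRCm38). A promoter of RefSeq (build GRCm38.p6) was at hand for 32 of the 46 members, among them all 10 genes of this cluster. The letters TGANTCA, a pattern that is its own reverse complement and that takes in the binding motif of AP-1 (TGACTCA or TGAGTCA) as well as TGAATCA and TGATTCA, were searched in the 250 bases before each start, on both strands. The motif was present for 2113 of 27025 genes with a promoter (7.82%) and for 8 of the 32 members, all of them in the chromosome 9 cluster. Of the other 22 members with a promoter, 0 had these letters in the window. These 8 sites are shown because they are a shared sequence feature that the choice of members did not use, although the grouping by cluster was made after the matches were seen. Each line gives 12 bases on either side of the motif, read 5′ to 3′ on the strand of the gene, with the motif in capitals. The sites were at chr9:7272467-7272497 for Mmp13, chr9:7347318-7347348 for Mmp12, chr9:7388101-7388131 (reverse strand) for Mmp1b and chr9:7445764-7445794 for Mmp3. They were at chr9:7464056-7464086 for Mmp1a, chr9:7502267-7502297 for Mmp10, chr9:7628124-7628154 for Mmp20 and chr9:7692015-7692045 for Mmp7, and all but that of Mmp1b lie on the forward strand.
Mmp13: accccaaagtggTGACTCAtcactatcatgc
Mmp12: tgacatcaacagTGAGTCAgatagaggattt
Mmp1b: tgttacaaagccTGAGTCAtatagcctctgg
Mmp3: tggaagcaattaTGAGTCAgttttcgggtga
Mmp1a: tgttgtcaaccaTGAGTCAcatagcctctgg
Mmp10: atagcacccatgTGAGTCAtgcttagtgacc
Mmp20: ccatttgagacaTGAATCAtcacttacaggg
Mmp7: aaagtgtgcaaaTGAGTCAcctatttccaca
The match of Mmp20 was TGAATCA, and the other 7 were TGACTCA or TGAGTCA. The first base of the motif lay between 35 bases (Mmp13) and 95 bases (Mmp20) before the start. The 8 genes nevertheless differed widely in the LG: Mmp3 had 66 to 344 counts in every mouse, Mmp12 had 5 to 196, Mmp7 had 0 to 51 and Mmp13 had 0 to 7. Mmp1b, Mmp10 and Mmp20 had at most 1 count in any mouse, and Mmp1a had 0 counts in all 18 mice.

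The libraries held 49480781 to 103936830 counts per mouse, and 17 of 18 had at most 67138830. BALB/c 6M replicate 1 was the deepest. The LG identity of the samples was plain from the acinar list (5 of 7 genes in the table, among them Lpo and Car6), which summed to 9212 to 11987 CPM (counts scaled to library size) among BALB/c mice and to 3185 to 8480 CPM among NOD.H-2b mice. The 6 B cell markers summed to 0.0353 to 2.09 CPM in BALB/c mice and to 1.46 to 401 CPM in NOD.H-2b mice, and the 7 T cell markers to 0.176 to 4.50 CPM and 7.39 to 94.0 CPM. The 10 macrophage markers summed to 58.7 to 161 CPM among BALB/c mice and to 228 to 471 CPM among NOD.H-2b mice. Among BALB/c mice, 4M replicate 3 stood apart with the highest macrophage sum (161 CPM) and the highest T cell sum (4.50 CPM), so calls at 4M that are gained or lost without this mouse are given both ways. In a bulk sample, fewer cells of a type and less RNA per cell cannot be told apart.

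A pair of inhibitors and a pair of proteases made up most of the RNA of these families. Levels of different genes were compared as CPM per kilobase (kb) of annotated exon sequence. Timp2 had the highest mean level of all members in every group, 10.4 ± 1.56 CPM per kb (SD, n = 3) in the BALB/c group at 2M and 12.9 ± 1.52 CPM per kb for NOD.H-2b at 6M. In BALB/c at 2M it was followed by Timp3 at 7.49 ± 0.274, Mmp15 at 5.55 ± 0.437 and Mmp2 at 5.21 ± 0.693 CPM per kb, and Mmp15 and Mmp2 did not differ beyond their spread. Next came Adamts10 at 2.23 ± 0.130 and Adamts5 at 1.39 ± 0.167 CPM per kb. In NOD.H-2b at 2M the order after Timp2 was Mmp2 (7.57 ± 0.551), Mmp15 (5.58 ± 0.584) and Timp3 (3.01 ± 0.364 CPM per kb). At the other end, 7 members had at most 3 counts in every mouse, namely Adamts19, Mmp10, Mmp1a, Mmp1b, Mmp20, Mmp21 and Mmp24. For Mmp1a, 0 counts in all mice allow a level of up to 0.00278 CPM, where this limit stands for 3 counts over all 18 libraries and covers counting error only.

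Summed over the family and per kb, the Mmp genes exceeded the Timp genes in every NOD.H-2b mouse at 2M and 4M, and in 1 of the 9 BALB/c mice. The ratio of the Mmp sum to the Timp sum was 0.740, 0.757 and 0.784 in the BALB/c mice at 2M and 1.40, 1.27 and 1.26 in the NOD.H-2b mice. At 4M the ratio was 0.899, 0.993 and 1.20 among BALB/c mice and 1.30, 1.30 and 1.36 among NOD.H-2b mice. At 6M it was 0.772, 0.708 and 0.684 among BALB/c mice and 0.921, 0.911 and 0.952 among NOD.H-2b mice. The strains did not overlap at any age, and BALB/c 4M replicate 3 was the BALB/c mouse nearest to NOD.H-2b. At 2M both parts of the ratio differed: the Mmp sum was 13.6 ± 0.962 CPM per kb for BALB/c against 17.8 ± 1.22 for NOD.H-2b (SD, n = 3), and the Timp sum was 18.0 ± 1.57 and 13.6 ± 0.198. At 6M the Timp sums of the strains overlapped (15.7 to 20.4 CPM per kb for BALB/c, 14.6 to 18.2 for NOD.H-2b). The Adamts sum was 7.71 to 10.5 CPM per kb among BALB/c mice and 7.41 to 9.21 among NOD.H-2b mice, with overlap at each age. Over the 6 groups the 2 most abundant genes made up 54.8% to 78.9% of the Mmp sum and 96.1% to 99.4% of the Timp sum, and no test was made on the sums.

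**Figure D1:**
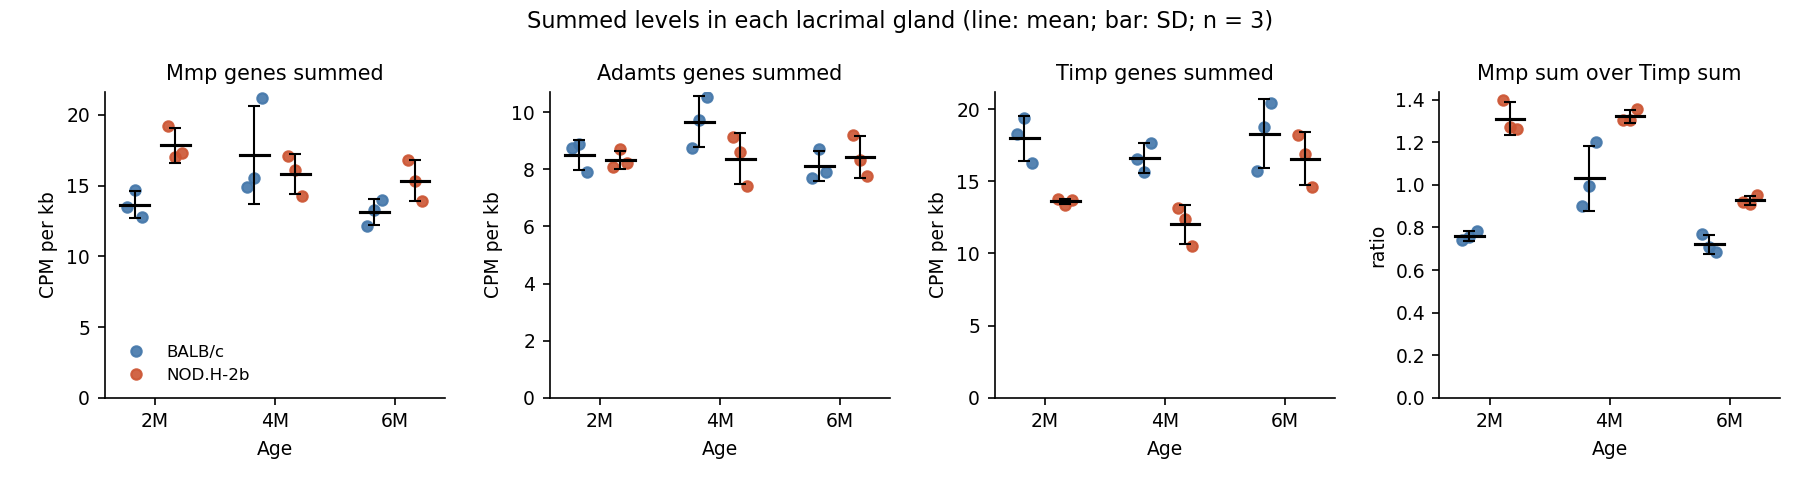
Levels of the Mmp, Adamts and Timp genes summed in each mouse (CPM per kb of exon) and the ratio of the Mmp to the Timp sum, by age and strain; points are mice, lines are means and bars are SD (n = 3). The ratio lies at 0.684 to 1.20 for BALB/c mice and at 0.911 to 1.40 for NOD.H-2b mice, without overlap within an age.

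Strains were compared first, at each age, with edgeR's quasi-likelihood test and Benjamini-Hochberg adjustment over all genes tested. In NOD.H-2b LGs Adamts6 and Mmp25 were upregulated at least 2-fold at every age, Adamts14 was higher and Timp3 and Adamts17 were lower at every age, and the other differences were called at only some of the ages. At 2M, 25 members had enough counts to be tested, of which 9 were higher in NOD.H-2b (background over all genes 22.5%) and 3 were lower (background 17.2%). With the further requirement of a 2-fold change that defines DEGs, 3 were higher (background 12.0%) and 2 were lower (background 3.76%). The members called higher were Adamts2, Adamts5, Adamts6, Adamts12, Adamts14, Mmp2, Mmp14, Mmp19 and Mmp25, and those called lower were Adamts10, Adamts17 and Timp3.

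At 4M, 32 members were tested, with 7 higher (background 23.4%) and 8 lower (background 19.2%). Of these, 6 were DEGs in the higher direction (background 15.6%) and 4 in the lower (background 4.72%). The higher members were Adamts6, Adamts8, Adamts14, Mmp7, Mmp17, Mmp25 and Timp1, and the lower ones Adamts5, Adamts16, Adamts17, Mmp9, Mmp12, Mmp15, Timp2 and Timp3. Without BALB/c 4M replicate 3 there were 8 higher and 6 lower members: Mmp14 and Mmp19 joined the higher ones, and Adamts8, Adamts17 and Timp2 were no longer called. At 6M, 28 members were tested, with 11 higher (background 28.6%) and 4 lower (background 25.8%), of which 8 were DEGs in the higher direction (background 18.8%) and 1 in the lower (background 6.03%). The higher members were Adamts6, Adamts8, Adamts9, Adamts14, Adamts18, Mmp7, Mmp14, Mmp19, Mmp23, Mmp25 and Timp1, and the lower ones Adamts15, Adamts17, Mmp15 and Timp3.

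The median log2 fold change (log2FC, NOD.H-2b over BALB/c) of the members tested at 2M was 0.28 (all genes tested, 0.0099). It was -0.16 for those tested at 4M (all genes, 0.00034) and 0.21 for those tested at 6M (all genes, -0.0041). A low member that passes the filter through 1 strain alone has to differ, so these counts do not describe all 46 members. This applies to Mmp25 at 2M, to Adamts8, Mmp7 and Mmp17 at 4M and to Adamts8, Adamts18 and Mmp7 at 6M, which had fewer than 10 counts in every BALB/c mouse of that age. Adamts6 at each age, Timp1 at 4M and 6M and Mmp25 at 6M also met the filter through NOD.H-2b alone. There, at least 1 BALB/c mouse of that age had fewer than 10 counts. Mmp9 and Mmp12 at 4M met it through BALB/c alone, with at least 1 NOD.H-2b mouse under 10 counts. With at least 10 counts in every mouse, 20, 21 and 20 members were left at 2M, 4M and 6M, and 1, 1 and 3 of them were DEGs in the higher direction. Leaving out each mouse in turn, 11 of 12 calls at 2M, 8 of 15 at 4M and 11 of 15 at 6M were kept in every case. The calls lost are given with each gene.

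**Figure D2:**
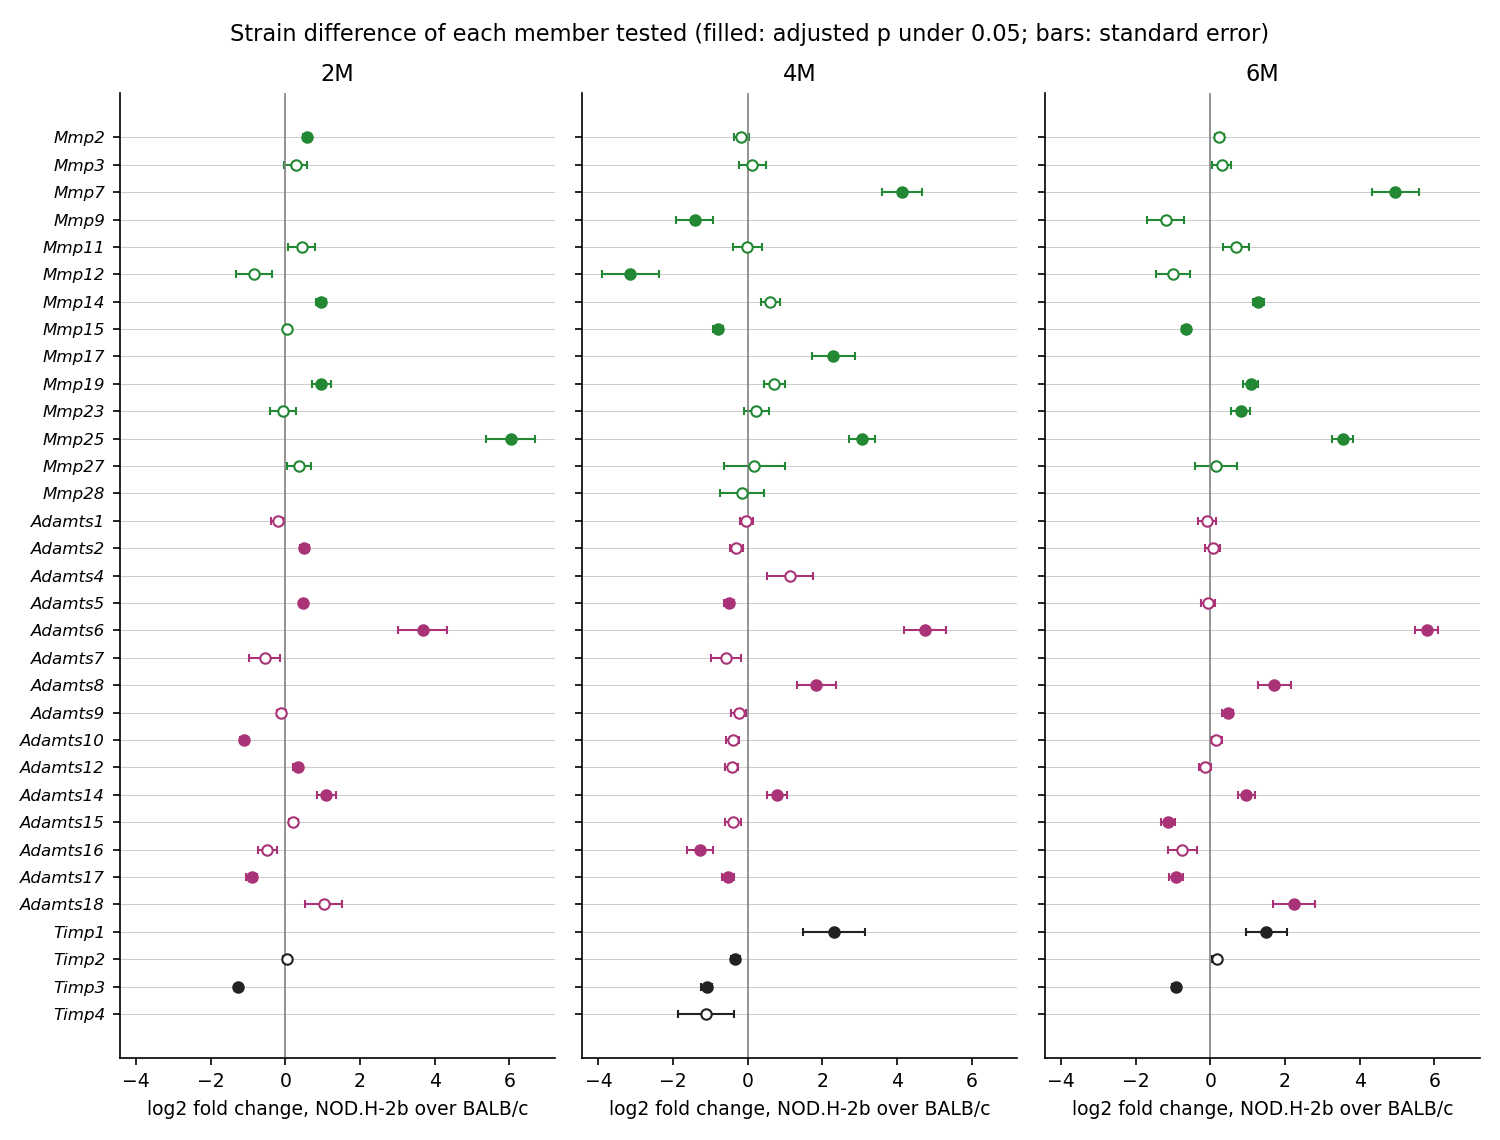
Log2 fold change of NOD.H-2b over BALB/c for each member tested at 2M, 4M and 6M, with bars of 1 standard error; filled points have an adjusted p under 0.05, and a member with no point at an age had too few counts there. Adamts6 and Mmp25 lie far to the right at each age (log2FC 3.06 to 6.03), Timp3 and Adamts17 lie to the left at each age (-0.53 to -1.27), and Mmp12 is farthest to the left at 4M (-3.14).

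Ages were compared within each strain, between 2M and 6M. In BALB/c LGs few members moved: of 23 tested, Mmp12 was higher at 6M (background 3.48%), and Adamts9 and Adamts12 were lower (background 2.13%), and each of these 3 calls was lost without at least 3 of the 6 mice, taken one at a time. The number of calls in BALB/c depended on the mice used. Over all genes, 577 were higher and 353 lower, and these counts rose to 1223 and 1211 without BALB/c 6M replicate 3. Over the omissions, 0 to 2 members were higher and 0 to 4 lower. In NOD.H-2b LGs 30 members were tested and 13 changed. Of these, 7 were higher at 6M (Adamts6, Adamts8, Adamts10, Mmp14, Mmp23, Mmp25 and Timp2, background 20.7%) and 6 were lower (Adamts2, Adamts12, Adamts15, Adamts16, Mmp2 and Mmp15, background 19.4%). The median log2FC from 2M to 6M was -0.12 over the members tested for BALB/c (all genes, 0.01) and 0.07 over those tested for NOD.H-2b (all genes, -0.01). In NOD.H-2b, 8 of the 13 calls were kept without each mouse in turn.

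Whether the strain difference itself changed from 2M to 6M was tested in a fit of all 18 mice, called strain by age, which shares its mice with the comparisons above. The difference is signed (NOD.H-2b over BALB/c), so it can fall while the strains move apart and rise while they come together. Of 36 members tested, the difference rose for 1, Adamts10 (background 7.04%), and fell for 2, Adamts15 and Mmp15 (background 9.09%). All 3 calls were kept in all 18 fits that left out a mouse. For each of the other 33 members an effect of strain called at 1 age and not at another is not shown to differ between the ages.

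Among the inhibitors, Timp3 (ENSMUSG00000020044, chr10:86300372-86349506), the TIMP that binds to the matrix, was lower in NOD.H-2b LGs at every age. At 2M, Timp3 was at 58.4, 62.6 and 61.8 CPM in the BALB/c mice and 26.3, 21.1 and 26.2 CPM in the NOD.H-2b mice. At 4M, Timp3 was at 43.8, 31.1 and 36.5 CPM in the BALB/c mice and 15.2, 20.1 and 16.4 CPM in the NOD.H-2b mice. At 6M, Timp3 was at 48.4, 50.4 and 59.1 CPM in the BALB/c mice and 28.0, 28.4 and 24.9 CPM in the NOD.H-2b mice. The strains did not overlap at any age, and the mean of both strains was lowest at 4M. The log2FC was -1.27 (SE 0.08, adjusted p = 8.23e-07) at 2M, -1.10 (SE 0.15, adjusted p = 0.000461) at 4M and -0.92 (SE 0.09, adjusted p = 2.48e-05) at 6M, and each call was kept without each mouse in turn. Timp3 is nested with exon overlap in Syn3 on the opposite strand, and Syn3 had 2.01 to 4.64 CPM, so that reads of the pair might be mixed if the counting ignored strand.

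Timp2 (ENSMUSG00000017466, chr11:118301069-118355740), which besides inhibiting MMPs takes part in the activation of MMP2 by MMP14, was close to equal in the strains. At 2M, Timp2 was at 42.9, 44.9 and 33.5 CPM in the BALB/c mice and 40.03, 40.9 and 40.2 CPM in the NOD.H-2b mice. At 4M, Timp2 was at 43.3, 45.8 and 50.4 CPM in the BALB/c mice and 42.3, 37.3 and 30.5 CPM in the NOD.H-2b mice. At 6M, Timp2 was at 37.6, 47.9 and 51.0 CPM in the BALB/c mice and 56.0, 50.2 and 44.1 CPM in the NOD.H-2b mice. The strains overlapped at 2M and 6M, and at 4M every NOD.H-2b mouse was below every BALB/c mouse. The log2FC at 4M was -0.33 (SE 0.12, adjusted p = 0.0467), and the call was lost without BALB/c replicate 2, BALB/c replicate 3, NOD.H-2b replicate 2 or NOD.H-2b replicate 3 (adjusted p 0.00573 to 0.116 over the 6 omissions) and with at least 10 counts in every mouse (adjusted p = 0.0770). With age, Timp2 was higher at 6M than at 2M in NOD.H-2b by 0.29 (SE 0.09, adjusted p = 0.0272), a call lost without 2M replicate 1, 2M replicate 3 or 6M replicate 1 and in 1 fit of all 18 mice (adjusted p = 0.0758).

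Timp1 (ENSMUSG00000001131, chrX:20870166-20874735), the inhibitor best known to be induced in inflamed tissue, was low in all mice but higher in NOD.H-2b. At 2M, Timp1 was at 0.0573, 0.108 and 0.0705 CPM in the BALB/c mice and 0.197, 0.243 and 0.126 CPM in the NOD.H-2b mice. At 4M, Timp1 was at 0.0184, 0 and 0.194 CPM in the BALB/c mice and 0.348, 0.278 and 0.580 CPM in the NOD.H-2b mice. At 6M, Timp1 was at 0.0966, 0.213 and 0.0467 CPM in the BALB/c mice and 0.366, 0.420 and 0.193 CPM in the NOD.H-2b mice. The groups did not overlap at 2M and 4M but did at 6M, and the counts ranged from 0 to 29 per mouse. The log2FC was 2.32 (SE 0.83) at 4M and 1.51 (SE 0.55) at 6M, and Timp1 had too few counts for the test at 2M. At 4M and 6M Timp1 passed the filter through NOD.H-2b alone, so the filter favoured the direction of these calls and no p is given for them. The call at 4M held only without BALB/c replicate 3 (log2FC 5.08) and was lost in the other 5 omissions and with DESeq2 size factors. The call at 6M was lost without BALB/c replicate 1 or 3 and without NOD.H-2b replicate 1 or 2. It was also lost with DESeq2's Wald test and in 1 fit of all 18 mice. Timp4 (ENSMUSG00000030317, chr6:115241892-115252205), an inhibitor known mainly from heart and fat, was near the limit of detection. At 2M, Timp4 was at 0.134, 0.233 and 0.0529 CPM in the BALB/c mice and 0.0985, 0.0304 and 0.0629 CPM in the NOD.H-2b mice. At 4M, Timp4 was at 0.240, 0.203 and 0.134 CPM in the BALB/c mice and 0.0303, 0.0309 and 0.220 CPM in the NOD.H-2b mice. At 6M, Timp4 was at 0.0429, 0.0213 and 0.164 CPM in the BALB/c mice and 0.0653, 0.0175 and 0.0175 CPM in the NOD.H-2b mice. Timp4 overlaps exons of Syn2 on the opposite strand, which had 3 to 344 counts per mouse, so that reads of this pair might be mixed too. The strains overlapped at each age for Timp4, its counts were 1 to 13 per mouse, and it was tested between the strains at 4M alone (log2FC -1.11, SE 0.74, adjusted p = 0.265).

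**Figure D3:**
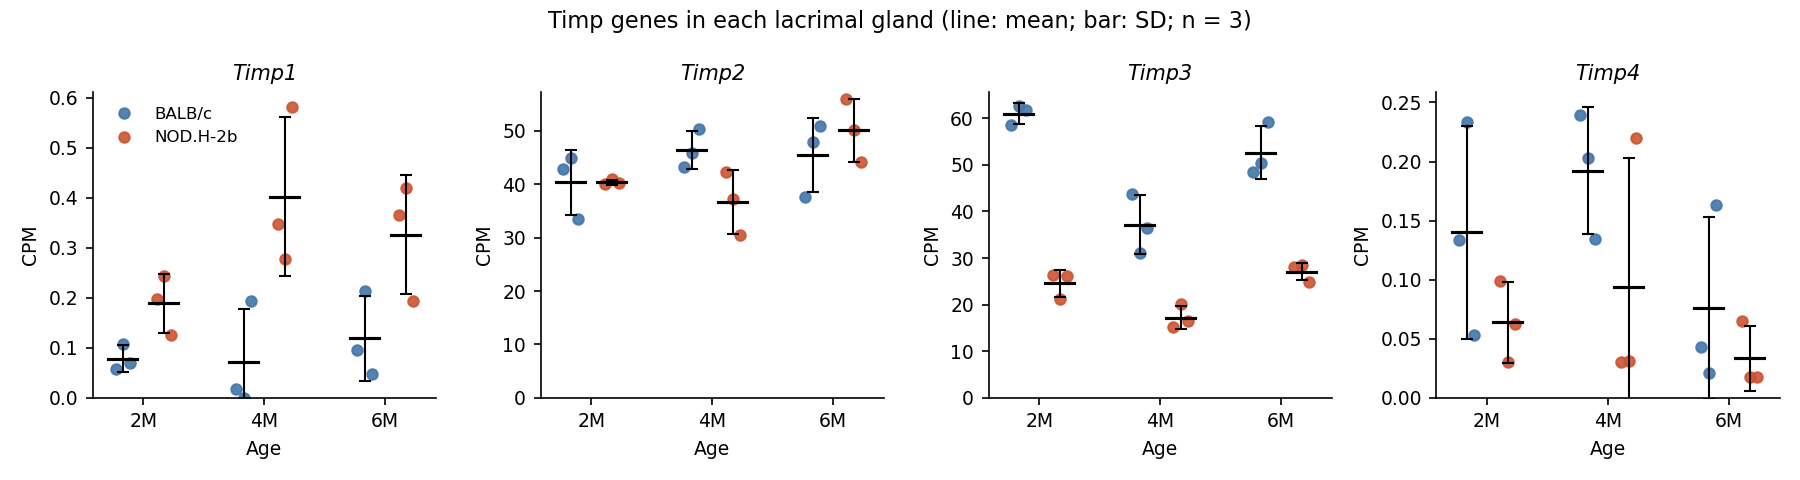
CPM of Timp1, Timp2, Timp3 and Timp4 in each mouse by age and strain; points are mice, lines are means and bars are SD (n = 3), and each panel has its own scale. Timp3 lies at 15.2 to 28.4 CPM in NOD.H-2b and at 31.1 to 62.6 CPM in BALB/c mice, whereas Timp2 overlaps at 2M and 6M.

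Of the gelatinases, which cut denatured collagen and basement membrane collagen, Mmp2 (ENSMUSG00000031740, chr8:92827291-92853420) was abundant and Mmp9 was scarce. At 2M, Mmp2 was at 17.8, 19.8 and 15.1 CPM in the BALB/c mice and 27.3, 23.6 and 25.6 CPM in the NOD.H-2b mice. At 4M, Mmp2 was at 15.2, 18.8 and 26.6 CPM in the BALB/c mice and 18.0, 19.8 and 15.8 CPM in the NOD.H-2b mice. At 6M, Mmp2 was at 14.4, 17.6 and 16.0 CPM in the BALB/c mice and 21.3, 18.9 and 15.4 CPM in the NOD.H-2b mice. Every NOD.H-2b mouse was above every BALB/c mouse at 2M, and the groups overlapped later. The log2FC was 0.58 (SE 0.10, adjusted p = 0.000740) at 2M and -0.17 (SE 0.20, adjusted p = 0.540) at 4M, the latter 0.07 without BALB/c 4M replicate 3. Mmp2 fell from 2M to 6M in NOD.H-2b with a log2FC of -0.48 (SE 0.12, adjusted p = 0.0123), which was not called without 2M replicate 3 (adjusted p = 0.0502). The sum of the 8 fibroblast markers was lower at 6M as well, with 745 to 828 CPM at 2M and 328 to 411 CPM at 6M for NOD.H-2b (BALB/c, 499 to 653 and 345 to 442 CPM), and 4 of the 8 were called lower in NOD.H-2b. Their part in the result was not tested.

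Mmp9 (ENSMUSG00000017737, chr2:164940780-164955850), known from neutrophils and macrophages, was not called higher in NOD.H-2b at any age. At 2M, Mmp9 was at 0.0573, 0.215 and 0.106 CPM in the BALB/c mice and 0.115, 0.107 and 0.0157 CPM in the NOD.H-2b mice. At 4M, Mmp9 was at 0.608, 0.447 and 0.343 CPM in the BALB/c mice and 0.0908, 0.278 and 0.140 CPM in the NOD.H-2b mice. At 6M, Mmp9 was at 0.451, 0.383 and 0.164 CPM in the BALB/c mice and 0.157, 0.192 and 0.0876 CPM in the NOD.H-2b mice. The NOD.H-2b mice lay below the BALB/c mice without overlap at 4M, and the groups overlapped at 2M and 6M. The log2FC was -1.43 (SE 0.49) at 4M and -1.19 (SE 0.49, adjusted p = 0.0643) at 6M, and Mmp9 was not tested at 2M. At 4M Mmp9 passed the filter through BALB/c alone, which favoured a call in this direction, so no p is given for that age. The call at 4M was lost without BALB/c replicate 1 or 2 and without NOD.H-2b replicate 1 or 3 (log2FC -2.005 to -1.11 over the omissions). It was also lost with DESeq2's Wald test.

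Among the membrane-anchored MMPs, Mmp25 (ENSMUSG00000023903, chr17:23628311-23645277), a GPI-anchored enzyme known from leukocytes, was upregulated in NOD.H-2b LGs at every age. At 2M, Mmp25 was at 0, 0 and 0.0529 CPM in the BALB/c mice and 0.887, 1.38 and 1.59 CPM in the NOD.H-2b mice. At 4M, Mmp25 was at 0.276, 0.244 and 0.611 CPM in the BALB/c mice and 3.78, 2.42 and 3.46 CPM in the NOD.H-2b mice. At 6M, Mmp25 was at 0.215, 0.362 and 0.164 CPM in the BALB/c mice and 3.02, 2.40 and 2.98 CPM in the NOD.H-2b mice. No group overlapped, and in BALB/c at 2M only 1 mouse had any count. Those 3 counts faced 246 in NOD.H-2b, a ratio per library size of 71.0 with an exact 95% interval of 24.0 to 347 that covers counting error only. The log2FC was 6.03 (SE 0.65) at 2M, a size that depends on the prior count of the fit (9.28 without BALB/c replicate 3, the mouse with the counts). It was 3.06 (SE 0.35, adjusted p = 0.000125) at 4M and 3.54 (SE 0.29) at 6M. At 2M and 6M Mmp25 passed the filter through NOD.H-2b alone. The filter favoured the direction of those calls, so no p is given for them. In NOD.H-2b Mmp25 rose from 2M to 6M by a log2FC of 1.10 (SE 0.24, adjusted p = 0.00702). All of these calls were kept without each mouse in turn, and the log2FC at 4M was 3.62 without BALB/c replicate 3. The 11 neutrophil markers, one of which is the member Mmp8, summed to 0.630 to 2.10 CPM among BALB/c mice and 2.02 to 7.03 CPM among NOD.H-2b mice, and Ly6g, Elane, Ngp and Camp had at most 3 counts in every mouse. Beside Mmp25 the B cell, T cell and macrophage sums given above were higher in NOD.H-2b as well, and their part in the result was not tested.

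Mmp14 (ENSMUSG00000000957, chr14:54431612-54445364), also called MT1-MMP, is the membrane collagenase that activates MMP2. At 2M, Mmp14 was at 5.60, 6.15 and 4.32 CPM in the BALB/c mice and 9.38, 11.6 and 9.43 CPM in the NOD.H-2b mice. At 4M, Mmp14 was at 6.63, 8.25 and 12.8 CPM in the BALB/c mice and 17.1, 12.5 and 12.5 CPM in the NOD.H-2b mice. At 6M, Mmp14 was at 5.32, 7.28 and 5.49 CPM in the BALB/c mice and 16.1, 13.8 and 13.2 CPM in the NOD.H-2b mice. The groups were apart at 2M and 6M, and at 4M BALB/c replicate 3 reached into the range of NOD.H-2b. The log2FC was 0.96 (SE 0.14, adjusted p = 0.000306) at 2M, 0.61 (SE 0.26, adjusted p = 0.113) at 4M and 1.29 (SE 0.14, adjusted p = 4.27e-05) at 6M. Without BALB/c 4M replicate 3 the log2FC at 4M was 0.92 (adjusted p = 0.00294). With age, Mmp14 rose in NOD.H-2b (log2FC 0.49, SE 0.12, adjusted p = 0.0110, but 0.0663 in 1 fit of all 18 mice) while in BALB/c the log2FC was 0.16 (SE 0.16, adjusted p = 0.625), and the difference between these changes was not called (strain by age 0.34, SE 0.30, adjusted p = 0.482).

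Mmp15 (ENSMUSG00000031790, chr8:95352268-95375080), or MT2-MMP, was the membrane MMP with the highest mean level per kb in every group. It was also the one whose signed strain difference fell with age, from level at 2M to lower in NOD.H-2b at 6M. At 2M, Mmp15 was at 29.1, 28.2 and 32.6 CPM in the BALB/c mice and 32.7, 26.6 and 31.0 CPM in the NOD.H-2b mice. At 4M, Mmp15 was at 35.6, 29.3 and 36.1 CPM in the BALB/c mice and 15.8, 21.5 and 20.6 CPM in the NOD.H-2b mice. At 6M, Mmp15 was at 24.8, 22.1 and 29.0 CPM in the BALB/c mice and 16.4, 14.5 and 16.4 CPM in the NOD.H-2b mice. The strains overlapped at 2M, and every NOD.H-2b mouse was below every BALB/c mouse at 4M and 6M. The log2FC was 0.05 (SE 0.08, adjusted p = 0.691), -0.80 (SE 0.13, adjusted p = 0.000977) and -0.65 (SE 0.11, adjusted p = 0.000584) at 2M, 4M and 6M, and the change from 2M to 6M was -0.95 (SE 0.09, adjusted p = 0.000502) in NOD.H-2b and -0.25 (SE 0.10, adjusted p = 0.172) in BALB/c. The test of the difference gave a strain by age log2FC of -0.69 (SE 0.17, adjusted p = 0.0145). The acinar sum was lower in NOD.H-2b too, at 7295 to 8480 CPM at 2M and 3185 to 4941 CPM at 6M (BALB/c, 10928 to 11157 and 9212 to 11987 CPM). Of the 5 acinar genes, 2, 3 and 4 were called lower and 0, 1 and 1 higher at 2M, 4M and 6M. The part of this list in the result was not tested.

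The other 4 membrane-anchored members were low. Mmp23 was tested at each age and was higher in NOD.H-2b at 6M (log2FC 0.81, SE 0.26, adjusted p = 0.0221), a call lost without BALB/c replicate 2 or NOD.H-2b replicates 1 or 3, and it rose from 2M to 6M in NOD.H-2b (log2FC 1.04, SE 0.26, adjusted p = 0.0133). Mmp17, another GPI-anchored enzyme with 1 to 20 counts per mouse, was tested between strains at 4M only, with 2 to 4 counts per BALB/c mouse and 11 to 19 per NOD.H-2b mouse (log2FC 2.30, SE 0.58). Since it passed the filter through NOD.H-2b alone, the direction of that call was fixed and no p is given. Mmp16 had 0 to 5 counts and Mmp24 had 0 to 2 counts per mouse, and neither was tested. Summed Mmp16 counts were 6 for BALB/c and 7 for NOD.H-2b at 2M, 3 and 1 at 4M, and 9 and 0 at 6M. The ratio of NOD.H-2b to BALB/c was 1.01 (interval 0.291 to 3.64) at 2M and 0 (0 to 0.486) at 6M. These intervals cover counting error only.

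The stromelysins, matrilysin and the macrophage elastase split in both directions. Mmp12 (ENSMUSG00000049723, chr9:7344381-7369499), the macrophage elastase, was lower in NOD.H-2b at 4M although the macrophage markers were higher. At 2M, Mmp12 was at 0.248, 0.377 and 0.247 CPM in the BALB/c mice and 0.197, 0.0761 and 0.204 CPM in the NOD.H-2b mice. At 4M, Mmp12 was at 0.479, 0.812 and 2.92 CPM in the BALB/c mice and 0.166, 0.201 and 0.1001 CPM in the NOD.H-2b mice. At 6M, Mmp12 was at 0.687, 1.21 and 1.12 CPM in the BALB/c mice and 0.235, 0.857 and 0.386 CPM in the NOD.H-2b mice. NOD.H-2b mice lay below BALB/c mice without overlap at 2M and 4M, and BALB/c 4M replicate 3 had the highest value of all mice. The log2FC was -0.83 (SE 0.48, adjusted p = 0.202) at 2M, -3.14 (SE 0.76) at 4M and -0.99 (SE 0.46, adjusted p = 0.0956) at 6M. Without BALB/c 4M replicate 3 it was -2.01 at 4M, and the call was lost without NOD.H-2b 4M replicate 1 or 3. Mmp12 passed the filter at 4M through BALB/c alone, which favoured a call in this direction, so no p is given for that age. Between 2M and 6M Mmp12 rose in BALB/c (log2FC 1.76, SE 0.36, adjusted p = 0.0157), a call lost without 2M replicate 1, 2M replicate 3 or 6M replicate 2 and in 1 fit of all 18 mice (adjusted p = 0.129), and in NOD.H-2b the log2FC was 1.59 (SE 0.58, adjusted p = 0.0523). At 4M, 8 of 10 macrophage markers were higher in NOD.H-2b and 0 were lower, with sums of 361 to 384 CPM against 96.2 to 161 CPM in BALB/c.

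Mmp7 (ENSMUSG00000018623, chr9:7692090-7699585), matrilysin, a small MMP made by epithelial cells, falls outside the rule for members given in every mouse and is singled out because of its values. At 2M, Mmp7 was at 0.0573, 0.0179 and 0 CPM in the BALB/c mice and 0.476, 0.259 and 0.110 CPM in the NOD.H-2b mice. At 4M, Mmp7 was at 0.0184, 0.0203 and 0.0298 CPM in the BALB/c mice and 0.529, 0.402 and 0.4003 CPM in the NOD.H-2b mice. At 6M, Mmp7 was at 0.0107, 0 and 0.0467 CPM in the BALB/c mice and 0.666, 0.560 and 0.456 CPM in the NOD.H-2b mice. No group overlapped, and the 9 BALB/c mice had at most 3 counts each. The summed counts were 4 and 53 at 2M, 4 and 81 at 4M and 3 and 109 at 6M, which gave ratios of 11.5 (95% interval 4.23 to 43.7), 19.1 (7.18 to 71.8) and 34.8 (11.6 to 172), covering counting error only. Mmp7 had too few counts for the test at 2M and passed the filter at 4M and 6M through NOD.H-2b alone, so the direction of its calls at those ages was fixed by the filter and no p is given. Mmp3, stromelysin 1, had a mean of 0.828 ± 0.252 CPM per kb for BALB/c at 2M, beside 0.979 ± 0.376 CPM per kb for NOD.H-2b, and overlapped between the strains at each age (log2FC 0.28, 0.12 and 0.31, none called). Mmp11, stromelysin 3, had 14 to 62 counts and was not called in any comparison.

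Collagenases, which cut fibrillar collagen, were nearly absent. Mmp13, the main collagenase of rodents, had 0 to 7 counts per mouse, and Mmp8, the neutrophil collagenase, had 0 to 4. Mmp1a and Mmp1b, close copies of each other between which counting could split reads, had 0 and at most 1 count, and none of these 4 genes was tested. For Mmp13 the summed counts were 2 for BALB/c and 11 for NOD.H-2b at 2M, 8 and 7 at 4M, and 1 and 12 at 6M. The ratio was 4.76 (interval 1.04 to 44.2) at 2M and 11.5 (1.70 to 492) at 6M, covering counting error only. Of the remaining MMPs, Mmp19 was higher in NOD.H-2b at 2M (log2FC 0.97, SE 0.26, adjusted p = 0.0102) and 6M (1.08, SE 0.20, adjusted p = 0.00109), and at 4M without BALB/c replicate 3 (1.03, adjusted p = 0.0154). Mmp19 overlaps exons of Tmem198b and an antisense gene on the opposite strand. Mmp27 had 5 to 63 counts and Mmp28 3 to 25, without a call, and Mmp20, the enamel protease, and Mmp21 had at most 1 and 3 counts.

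**Figure D4:**
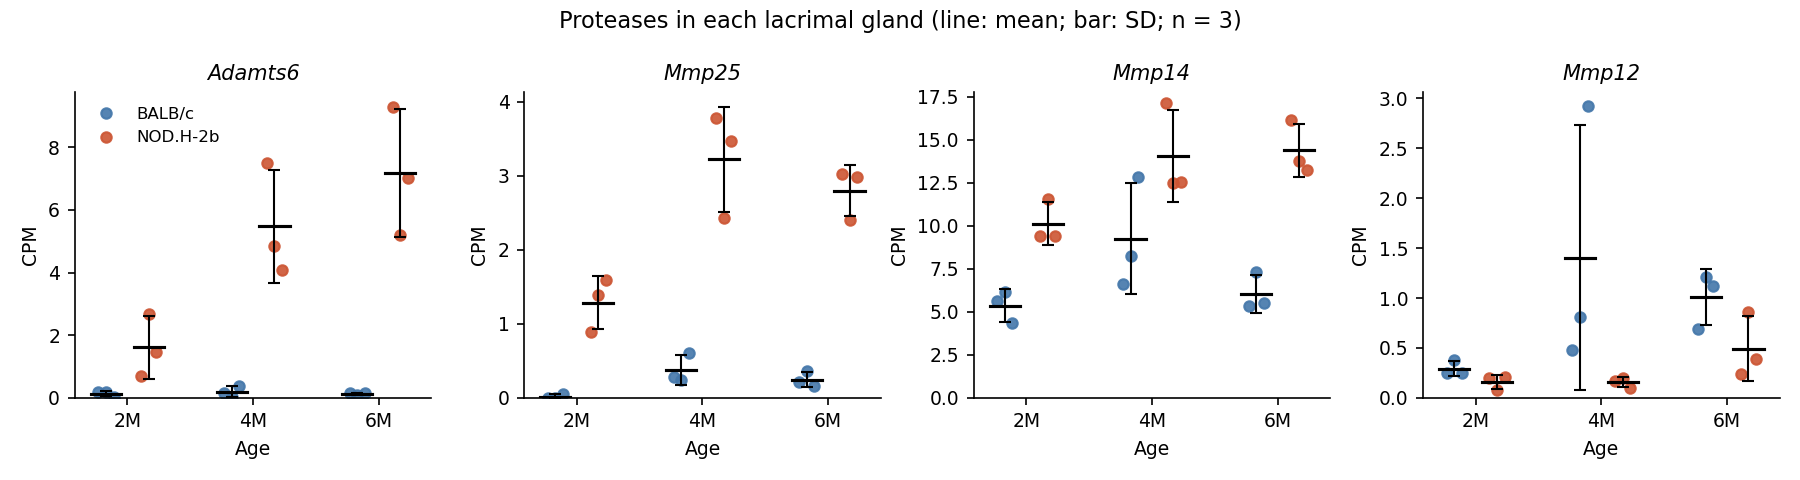
CPM of Adamts6, Mmp25, Mmp14 and Mmp12 in each mouse by age and strain; points are mice, lines are means and bars are SD (n = 3), with 1 scale per panel. Adamts6 stays at or below 0.388 CPM in all BALB/c mice and lies at 0.690 to 9.30 CPM in NOD.H-2b, and the single BALB/c 4M mouse at 2.92 CPM sets the mean of Mmp12.

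Adamts6 (ENSMUSG00000046169, chr13:104287835-104496695), a relative of Adamts10 with roles in the microfibril matrix, was the most strongly upregulated Adamts gene. At 2M, Adamts6 was at 0.172, 0.179 and 0.0353 CPM in the BALB/c mice and 0.690, 2.68 and 1.48 CPM in the NOD.H-2b mice. At 4M, Adamts6 was at 0.147, 0.0406 and 0.388 CPM in the BALB/c mice and 7.50, 4.83 and 4.08 CPM in the NOD.H-2b mice. At 6M, Adamts6 was at 0.150, 0.0852 and 0.140 CPM in the BALB/c mice and 9.30, 5.21 and 7.01 CPM in the NOD.H-2b mice. All NOD.H-2b mice were above all BALB/c mice, and the 6M values in NOD.H-2b were above all values at 2M. The log2FC was 3.68 (SE 0.66) at 2M, 4.74 (SE 0.57) at 4M and 5.80 (SE 0.31) at 6M, and the calls were kept without each mouse in turn. It was 3.09 at 2M without NOD.H-2b replicate 2 and 5.80 at 4M without BALB/c replicate 3. In these comparisons Adamts6 passed the filter through NOD.H-2b alone. The filter therefore favoured the direction of these calls, and no p is given for them. Between 2M and 6M Adamts6 rose in NOD.H-2b by 2.12 (SE 0.51, adjusted p = 0.0252), which was lost without 2M replicate 3, 6M replicate 1 or 6M replicate 3 (log2FC 1.77 to 2.72, the highest without 2M replicate 2) and with no filter on low counts (adjusted p = 0.0726). Strain by age was not called (2.13, SE 1.02, adjusted p = 0.171). In NOD.H-2b at 2M the mouse with the least Adamts6 (replicate 1) also had the lowest B cell sum (1.46 CPM, beside 26.1 and 11.0 CPM) and the lowest T cell sum (7.39 CPM, beside 25.3 and 15.6 CPM), whose part was not tested.

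Adamts10 (ENSMUSG00000024299, chr17:33524204-33553782), which binds fibrillin microfibrils, had the highest mean level per kb of the Adamts genes in BALB/c at 2M and differed between the strains at 2M. At 2M, Adamts10 was at 17.9, 19.6 and 17.7 CPM in the BALB/c mice and 7.05, 8.87 and 8.96 CPM in the NOD.H-2b mice. At 4M, Adamts10 was at 20.3, 18.1 and 22.7 CPM in the BALB/c mice and 19.95, 12.7 and 13.3 CPM in the NOD.H-2b mice. At 6M, Adamts10 was at 17.4, 16.8 and 12.9 CPM in the BALB/c mice and 19.4, 15.1 and 17.2 CPM in the NOD.H-2b mice. The 3 NOD.H-2b mice at 2M were below all other mice of both strains, and the strains overlapped at 4M and 6M. The log2FC was -1.10 (SE 0.10, adjusted p = 7.73e-06) at 2M, -0.40 (SE 0.18, adjusted p = 0.113) at 4M and 0.17 (SE 0.13, adjusted p = 0.317) at 6M. It rose from 2M to 6M in NOD.H-2b (1.04, SE 0.13, adjusted p = 0.000900), in BALB/c the log2FC was -0.23 (SE 0.11, adjusted p = 0.251), and the strain by age log2FC was 1.28 (SE 0.23, adjusted p = 0.00293).

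Adamts15 (ENSMUSG00000033453, chr9:30899155-30922452), a proteoglycanase that cuts versican, showed the opposite course. At 2M, Adamts15 was at 8.31, 9.40 and 8.25 CPM in the BALB/c mice and 11.3, 9.69 and 8.28 CPM in the NOD.H-2b mice. At 4M, Adamts15 was at 9.56, 11.9 and 14.2 CPM in the BALB/c mice and 8.26, 11.8 and 7.17 CPM in the NOD.H-2b mice. At 6M, Adamts15 was at 8.40, 9.24 and 14.0 CPM in the BALB/c mice and 5.08, 4.74 and 4.17 CPM in the NOD.H-2b mice. The strains overlapped at 2M and 4M, and at 6M the NOD.H-2b mice were the lowest of all 18. The log2FC was 0.22 (SE 0.11, adjusted p = 0.157) at 2M and -1.13 (SE 0.19, adjusted p = 0.000716) at 6M, with -1.08 (SE 0.13, adjusted p = 0.000912) from 2M to 6M in NOD.H-2b and 0.27 (SE 0.18, adjusted p = 0.459) in BALB/c. The strain by age log2FC was -1.34 (SE 0.29, adjusted p = 0.00785).

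Adamts12 (ENSMUSG00000047497, chr15:11064790-11349231), a protease of cartilage oligomeric matrix protein, fell with age in both strains. At 2M, Adamts12 was at 10.6, 7.84 and 8.46 CPM in the BALB/c mice and 12.2, 10.5 and 10.4 CPM in the NOD.H-2b mice. At 4M, Adamts12 was at 5.97, 8.55 and 8.83 CPM in the BALB/c mice and 5.23, 6.04 and 5.94 CPM in the NOD.H-2b mice. At 6M, Adamts12 was at 5.80, 6.30 and 4.56 CPM in the BALB/c mice and 5.19, 5.06 and 4.56 CPM in the NOD.H-2b mice. Values at 6M were below all values at 2M in each strain, and the strains overlapped at every age. Between 2M and 6M the log2FC was -1.17 (SE 0.11, adjusted p = 0.000394) in NOD.H-2b and -0.69 (SE 0.14, adjusted p = 0.0195) in BALB/c, the latter lost without 2M replicate 1, 2M replicate 3 or 6M replicate 1. The strain difference at 2M (log2FC 0.34, SE 0.12, adjusted p = 0.0388) was called only with all mice or without BALB/c replicate 1, and was lost in 1 fit of all 18 mice (adjusted p = 0.132). The fibroblast sum was lower at 6M too (given above), with 2 of the 8 markers called lower in BALB/c, and its part was not tested.

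Adamts16 (ENSMUSG00000049538, chr13:70727802-70841811), which can cut fibronectin, was also lower at 6M in NOD.H-2b. At 2M, Adamts16 was at 1.13, 0.969 and 0.952 CPM in the BALB/c mice and 0.624, 0.837 and 0.660 CPM in the NOD.H-2b mice. At 4M, Adamts16 was at 1.18, 1.04 and 1.25 CPM in the BALB/c mice and 0.287, 0.680 and 0.460 CPM in the NOD.H-2b mice. At 6M, Adamts16 was at 0.622, 0.852 and 0.351 CPM in the BALB/c mice and 0.392, 0.262 and 0.403 CPM in the NOD.H-2b mice. NOD.H-2b mice were below BALB/c mice without overlap at 2M and 4M. The log2FC was -1.27 (SE 0.34, adjusted p = 0.0131) between the strains at 4M and -1.02 (SE 0.31, adjusted p = 0.0271) from 2M to 6M in NOD.H-2b, and the latter was called only with all mice or without 2M replicate 1. In BALB/c the change from 2M to 6M was not called, with a log2FC of -1.02 to -0.50 when single mice were left out. Strain by age was not called, so the fall is not shown to differ between the strains.

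Adamts8 (ENSMUSG00000031994, chr9:30942562-30963838), a proteoglycanase next to Adamts15 on chromosome 9, was scarce, with 3 to 27 counts per mouse. At 2M, Adamts8 was at 0.0764, 0.0897 and 0.0529 CPM in the BALB/c mice and 0.0493, 0.0609 and 0.141 CPM in the NOD.H-2b mice. At 4M, Adamts8 was at 0.166, 0.102 and 0.0447 CPM in the BALB/c mice and 0.393, 0.417 and 0.280 CPM in the NOD.H-2b mice. At 6M, Adamts8 was at 0.0644, 0.106 and 0.0935 CPM in the BALB/c mice and 0.235, 0.297 and 0.298 CPM in the NOD.H-2b mice. The strains overlapped at 2M and were apart at 4M and 6M. The log2FC was 1.84 (SE 0.52) at 4M, a call lost without BALB/c replicate 2 or 3 or NOD.H-2b replicate 2. It was 1.72 (SE 0.44) at 6M, a call lost without BALB/c replicate 1. From 2M to 6M in NOD.H-2b it was 1.67 (SE 0.50), called among the omissions only without 2M replicate 3 (log2FC 2.27) and lost with DESeq2's Wald test. In each of these comparisons Adamts8 passed the filter through the higher group alone, so the direction of its calls was fixed by the filter and no p is given. An antisense gene overlaps exons of Adamts8.

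**Figure D5:**
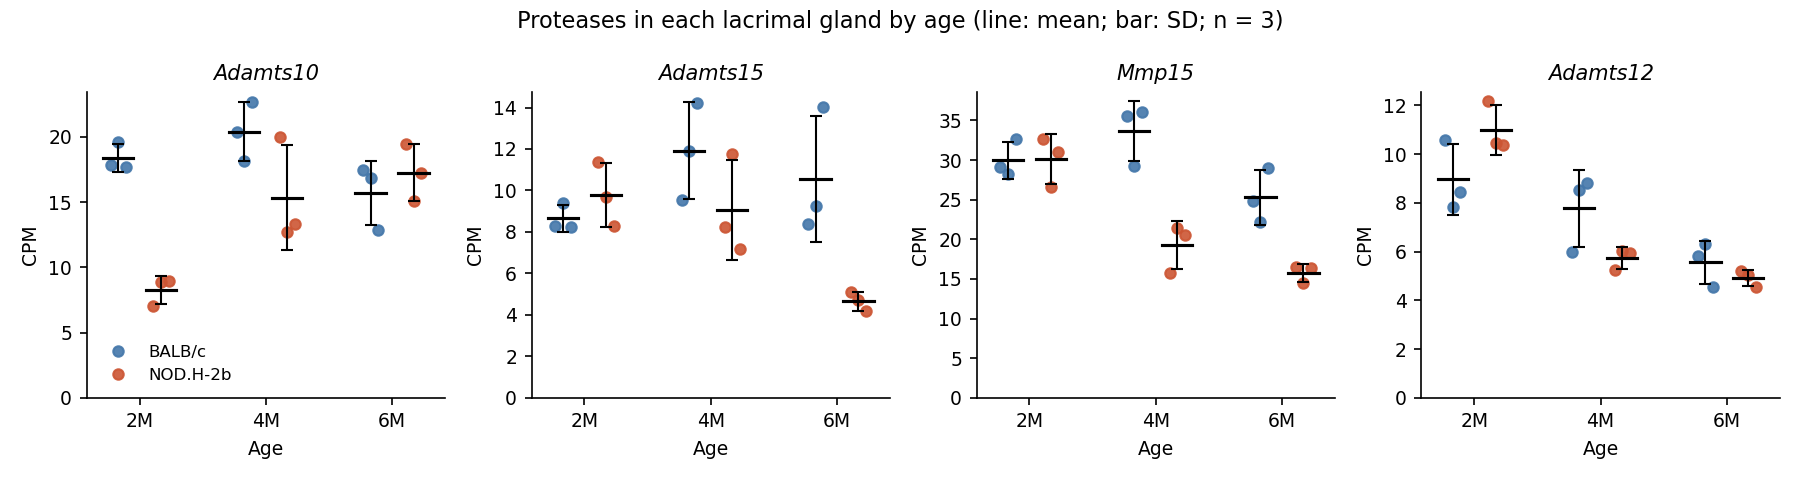
CPM of Adamts10, Adamts15, Mmp15 and Adamts12 in each mouse by age and strain; points are mice, lines are means and bars are SD (n = 3), with 1 scale per panel. Adamts10 of NOD.H-2b starts at 7.05 to 8.96 CPM at 2M and meets BALB/c at 6M, whereas Adamts15 and Mmp15 of NOD.H-2b start level with BALB/c and end below it.

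Among the other proteoglycanases, Adamts5, the main aggrecanase of mouse cartilage, changed sides. At 2M, Adamts5 was at 15.5, 16.4 and 12.9 CPM in the BALB/c mice and 20.1, 20.9 and 19.9 CPM in the NOD.H-2b mice. At 4M, Adamts5 was at 23.0, 26.4 and 22.7 CPM in the BALB/c mice and 18.0, 18.9 and 13.8 CPM in the NOD.H-2b mice. At 6M, Adamts5 was at 17.1, 22.8 and 17.4 CPM in the BALB/c mice and 19.98, 20.1 and 13.4 CPM in the NOD.H-2b mice. All NOD.H-2b mice were above all BALB/c mice at 2M and below them at 4M, and the strains overlapped at 6M. The log2FC was 0.49 (SE 0.09, adjusted p = 0.00106) at 2M and -0.50 (SE 0.12, adjusted p = 0.00873) at 4M, and both calls were kept without each mouse in turn. Adamts5 was picked out here because of this pattern and lies outside the rule for members given in every mouse. Adamts1 had 149 to 295 counts per mouse and overlapped between the strains at each age. Adamts9 was higher in NOD.H-2b at 6M (log2FC 0.46, SE 0.15, adjusted p = 0.0212), lost without BALB/c replicate 2 or NOD.H-2b replicate 2 or 3, and lower at 6M than at 2M in BALB/c (-0.55, SE 0.12, adjusted p = 0.0246), a call that held without 6M replicate 3 alone and was lost in 1 fit of all 18 mice (adjusted p = 0.0873). Adamts4 had 0 to 35 counts and Adamts20 had 2 to 19, and neither was called.

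Of the procollagen N-proteinases, which remove the amino-terminal propeptide of fibrillar collagens, Adamts14 was higher in NOD.H-2b at each age (log2FC 1.10 (SE 0.26, adjusted p = 0.00585), 0.78 (SE 0.27, adjusted p = 0.0437) and 0.97 (SE 0.23, adjusted p = 0.00523)) without overlap. The call for Adamts14 at 4M held in only 1 of 6 omissions, without BALB/c replicate 3 (log2FC 1.18, adjusted p = 0.00348). Adamts2 was higher in NOD.H-2b at 2M (0.51, SE 0.13, adjusted p = 0.00692, but 0.0587 in 1 fit of all 18 mice) and fell from 2M to 6M in that strain (-0.72, SE 0.15, adjusted p = 0.00614). Adamts3 had 0 to 27 counts and was not called. Adamts17, linked to fibrillin microfibrils like Adamts10, was lower in NOD.H-2b at each age without overlap (log2FC -0.90 (SE 0.15, adjusted p = 0.000611), -0.53 (SE 0.17, adjusted p = 0.0290) and -0.92 (SE 0.18, adjusted p = 0.00185)), with the call at 4M lost without BALB/c replicate 2 or 3 or NOD.H-2b replicate 3. Adamts18, with 1 to 22 counts, had a log2FC of 2.25 (SE 0.56) at 6M, where it passed the filter through NOD.H-2b alone, so that the direction of its call was fixed. Adamts7 had 7 to 24 counts without a call. Adamts13, the protease of von Willebrand factor, had 0 to 13 counts and was tested only for strain by age, without a call; at 6M its summed counts of 4 and 29 gave a ratio of 6.95 (interval 2.44 to 27.2). Adamts19 had at most 1 count.

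Genes that act with these proteases were taken from 4 lists. Their counts are to be read against the shares over all genes tested, which were 22.5%, 23.4% and 28.6% higher and 17.2%, 19.2% and 25.8% lower in NOD.H-2b at 2M, 4M and 6M. Of 24 activators, inhibitors and receptors outside the families, 18 were tested at each age, and 12, 7 and 8 were higher in NOD.H-2b at 2M, 4M and 6M while 0, 1 and 3 were lower (median log2FC 0.59, 0.23 and 0.39). Among those past 2-fold at all ages were Plaur, the urokinase receptor, and Cd44, a hyaluronan receptor that docks MMPs at the cell surface. At 2M Plaur had a mean of 0.145 ± 0.0263 CPM for BALB/c against 0.718 ± 0.308 CPM for NOD.H-2b, and at 6M of 0.299 ± 0.102 against 6.54 ± 3.04 CPM (SD, n = 3). Its log2FC was 2.33 (SE 0.43), 3.80 (SE 0.51) and 4.57 (SE 0.43) at the 3 ages. Plaur was low in BALB/c mice, with 0.115 to 0.1615 CPM at 2M and 0.0609 to 0.388 CPM at 4M. At those ages it passed the filter through NOD.H-2b alone, which favoured the direction of its calls. As for the members, the counts of the lists therefore do not describe all their genes. For Cd44 the log2FC was 2.82, 2.68 and 3.06. Of 21 other matrix and surface proteases, 17 were tested, with 10, 6 and 10 higher and 4, 3 and 5 lower. Among them were Hpse, the heparanase (log2FC 2.10, 2.60 and 2.54), Adam8 (1.51, 1.66 and 2.23) and Adam19 (1.44, 1.55 and 2.35).

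The 7 ADAMTS-like proteins, which resemble ADAMTS proteases but lack the catalytic part, showed 1, 1 and 2 higher and 1, 3 and 1 lower members. Adamtsl2 was higher at each age (log2FC 1.23, 1.81 and 1.87), and Papln, or papilin, was lower at each age (log2FC -1.30, -1.44 and -1.32), with 15.7 ± 1.05 CPM for BALB/c against 6.16 ± 0.477 CPM for NOD.H-2b at 2M (SD, n = 3). Of 25 matrix substrates 18 were tested, of which 11, 3 and 7 were higher and 0, 1 and 0 were lower at 2M, 4M and 6M (median log2FC 0.35, -0.09 and 0.17). Hapln4, a link protein of hyaluronan and proteoglycans, was nearly confined to NOD.H-2b, with 26.9 to 31.7 CPM at 2M and 17.5 to 25.4 CPM at 6M against 0 to 0.0955 CPM in all BALB/c mice. Hapln4 at each age and Adamtsl2 at 4M (0.102 to 0.258 CPM in BALB/c) passed the filter through NOD.H-2b alone. The filter favoured the direction of those calls. From 2M to 6M in NOD.H-2b, 2 substrates were higher and 11 of 19 tested were lower (median log2FC -0.39), and in BALB/c 1 was higher and 4 of 16 were lower (median -0.27). The shares over all genes were 20.7% higher and 19.4% lower for NOD.H-2b, and 3.48% and 2.13% for BALB/c.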

How the data were processed

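RNA-seq of whole LGs from 18 male mice was used, with 3 mice in each of 6 groups set by the labels. The raw counts per Ensembl gene were deposited by the authors, who removed ribosomal RNA and used cutadapt for trimming, STAR for alignment of the paired reads to GRCm38 and HTSeq for counting. The second deposited table holds log2 values made by the authors (log2 of 1 plus the count after scaling by DESeq2's size factors), and it served only to check the counts. Which annotation release and strand setting were used, and how reads with more than 1 match were handled, is not given in the sources used here. Both strains were aligned to 1 reference genome.

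CPM were computed with TMM factors over all 18 mice, and levels per kb used the union of GENCODE M21 exons. Each comparison was fitted in edgeR 4.0.16 (R 4.3.3) on the 6 mice concerned, and strain by age, which is the strain difference at 6M minus that at 2M, on all 18. Normalization was by TMM and low genes were removed by filterByExpr. Robust quasi-likelihood p-values were adjusted over all genes tested by the method of Benjamini and Hochberg. Calls needed an FDR under 0.05, and DEGs also a fold change of at least 2. Standard errors (SE) are those implied by each F statistic and its fold change. The steps were tested on simulated data. Pairs of replicates differed by more than counting error (chi-square per gene 17.7 to 91.1), so none was counted as a duplicate and the 3 mice set the precision. Intervals of ratios are exact 95% intervals for counting error.

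Members shown in every mouse were the Timp genes, Mmp2, Mmp9, Mmp12 and Mmp14, members past the FDR and 2-fold at all ages in one direction, members called for strain by age, and the 3 each way with the largest change among those past the FDR and 2-fold from 2M to 6M. Of the lists, up to 3 genes each way past both thresholds at all ages were named, by mean log2 fold change, and 1 gene that met this rule is not reported here. The members, lists and this rule were chosen with earlier results of these data known. Alternatives were DESeq2 size factors, DESeq2 1.42.0's Wald test, no filter, at least 10 counts in every mouse, the replicate number as a block, 1 fit of all 18 mice (or of the 12 mice of 2M and 6M) and leaving out each mouse. Protein sequences were not used here.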

Additional observations from a re-analysis of the deposited data

Results flagged for a closer look

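The strain difference changed between 2M and 6M for 3 members, by the strain by age test of the difference itself (edgeR's quasi-likelihood test, all 18 mice). For Adamts10 it rose by a log2FC of 1.28, from -1.10 at 2M to 0.17 at 6M. For Adamts15 the strain by age log2FC was -1.34, from 0.22 to -1.13. For Mmp15 it was -0.69, from 0.05 to -0.65. Adamts5 lay above BALB/c in every NOD.H-2b mouse at 2M (log2FC 0.49) and below BALB/c in every NOD.H-2b mouse at 4M (log2FC -0.50). The difference between these ages was not tested for Adamts5. No test for outlying values was made within groups of 3 mice.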

How the results depend on the processing

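Over 18 counts of called members, 205 of 240 alternative values lay within 1.5 times the value reported. Of the other 35, 21 came from the omission of a mouse and 10 from the filter on low counts. With at least 10 counts in every mouse, the members higher in NOD.H-2b past the FDR and 2-fold fell to 1 at 2M, 1 at 4M and 3 at 6M, those past the FDR alone to 2 at 4M and 5 at 6M, and the lower ones at 4M to 5 by FDR and 2 with 2-fold, since scarce members were no longer tested. With no filter the count lower past both thresholds at 6M was 2, and 3 members were higher and 4 lower at 6M in BALB/c. In 1 fit of all 18 mice 1 member was lower at 6M in BALB/c, and in the 12 mice of 2M and 6M the strain difference rose for 2 members; the cause was not tested. The replicate numbers did not pair the mice: the deviations of same-numbered mice correlated at -0.21 to 0.10, and no comparison had all its pairs above 0.1. With the replicate block the members of NOD.H-2b LGs that rose with age numbered 3 and those lower past both thresholds at 6M numbered 2. From 2M to 6M in NOD.H-2b the block lost the calls for Adamts6, Adamts8, Adamts16, Mmp23 and Timp2 (adjusted p 0.0534 to 0.0875). Between the strains at 4M it lost those for Mmp9 and Timp2 (adjusted p = 0.0951 for Timp2).

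With single mice left out, the counts ranged from 2 to 6 for higher members past both thresholds at 2M, and at 4M from 4 to 8 (higher, FDR), 5 to 8 (lower, FDR), 4 to 7 (higher, both thresholds) and 2 to 4 (lower, both). They ranged from 1 to 3 for lower members past both thresholds at 6M, 0 to 2 (higher) and 0 to 4 (lower) in BALB/c from 2M to 6M, and 2 to 4 for a falling strain difference. Where a fit left 2 mice in a group, the spread came from all groups of the fit. No called log2FC of a named member changed sign under any alternative. Of those not called, 8 changed sign: without 1 mouse the range was -0.0822 to 0.12 for Timp2 at 2M (-0.000815 in 1 fit of all 18 mice), -0.35 to 0.0693 for Mmp2 at 4M, -0.0219 to 0.11 for Mmp15 at 2M and -0.0017 to 0.27 for Mmp14 from 2M to 6M in BALB/c. For strain by age it was -0.14 to 0.76 for Timp1, -0.0241 to 0.22 for Timp2, -0.76 to 1.10 for Timp4 and -0.83 to 0.19 for Mmp12. Depth limits the 7 members with at most 3 counts in every mouse, for which no difference was detectable.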
